A study of Mus musculus with 26 samples.

Results

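The cAMP machinery examined here comprised 40 genes, chosen by name and role: 2 stimulatory and 3 inhibitory G protein alpha subunits, 9 adenylyl cyclases, 13 cyclic nucleotide phosphodiesterases, 2 catalytic subunits, 4 regulatory subunits and 3 inhibitors of protein kinase A (PKA), 2 EPAC exchange factors and 2 beta-arrestins. All 40 were found among the 55416 genes of the count tables by symbol. Polyadenylated RNA came from C57BL/6 mice whose lungs held metastases of B16F10, a mouse melanoma line given by intravenous injection. Tumour-bearing mice received propranolol, a blocker of beta-adrenoceptors, or no treatment, and every group used here, the untreated ones included, carried the melanoma. Whole lung gave 5 untreated and 5 propranolol libraries. Monocytes sorted from such lungs by flow cytometry, and lung CD4 T cells collected with magnetic beads, each gave 4 untreated and 4 propranolol libraries. The dose, route and duration of propranolol, any vehicle, and the age and sex of the mice are not given in the sources used here. Nothing in the labels ties each library to its own animal, and p-values therefore cover only the variation among these libraries, which may be technical.

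Cyclic AMP is the second messenger of receptors coupled to the stimulatory G protein, the beta-adrenoceptors among them. The stimulatory alpha subunit switches on adenylyl cyclases, which make cAMP from ATP, inhibitory alpha subunits restrain several of them, and phosphodiesterases hydrolyse cAMP. cAMP binds the regulatory subunits of PKA and frees the catalytic subunits, which phosphorylate targets such as the transcription factor CREB, and it also activates EPAC proteins, exchange factors for the small GTPase Rap. Beta-arrestins bind phosphorylated receptors and end their coupling to the G protein. In T cells the PKA arm is known as a brake on signalling from the antigen receptor, and phosphodiesterases of the PDE4 and PDE7 families are known to keep cAMP low there.

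Library totals lay between 29650148 and 47618634 counts in whole lung, between 36277687 and 48306925 in the libraries labelled monocytes and between 17625672 and 42484125 in those labelled CD4 T cells. The label monocytes described the material in part. Those libraries held the monocyte genes Csf1r and Cd14, but also the endothelial gene Cdh5, the airway gene Scgb1a1 and the surfactant gene Sftpc in all 8 libraries, and the 12 endothelial markers summed to between 8045 and 8552 CPM (counts relative to the library total) in the untreated ones. They further fell into close pairs: libraries 1 and 2, and libraries 3 and 4, of each treatment differed least from each other, with a chi-square per degree of freedom of 3.52 to 5.22 against 12.2 to 35.4 for the other pairs. Among treated CD4 T cell libraries, 3 and 4 were also close, at 5.47 against 37.8 to 139 for the other pairs. Untreated CD4 T cell pairs lay between 4.86 and 7.03. The treated CD4 T cell libraries may therefore not be independent, which was not tested, and no fit summed them. The CD4 T cell libraries held the 10 CD4 T cell markers at 2512 to 2578 CPM when untreated, and Tyrp1, Dct, Sftpc and Scgb1a1 were at 0 in all 8. They also held plasma cell RNA: the 8 plasma cell markers summed to between 16459 and 18023 CPM when untreated and between 17565 and 21415 after propranolol, with Igha, an antibody heavy chain gene, at 5763 to 6048 and at 3755 to 7098 CPM. In bulk RNA, fewer cells of a type and less RNA per cell cannot be told apart.

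RefSeq promoter entries (build GRCm38.p6, not the build of the counts) matched 30 of the 40 genes at 68 transcription starts. The 250 bases before each start were searched on both strands for the full cAMP response element, TGACGTCA, which CREB binds, and for its short form, TGACG with reverse complement CGTCA, which the full form contains. The full element stood before 1 of the 30 genes (3.33%), Prkar1a, against 1.77% of 27025 genes in the table, and the short form before 12 of the 30 (40%) against 19.8% of all genes. Genes have unequal numbers of starts, and per start the shares were 1.47% against 1.55% for the full form and 23.5% against 17.8% for the short form. The upstream bases of 4 of the 8 genes given library by library in CD4 T cells further on are shown on the plus strand, without bases that lie in an annotated exon, and capitals mark the full or short element. They are Prkar1a (ENSMUSG00000020612, the start of its 6 that has the full element, 49 bases upstream), Pde8a (ENSMUSG00000025584, short form 84 bases upstream of its only start), Adcy7 (ENSMUSG00000031659, the start of its 3 with the short form, 28 bases upstream) and Pde4d (ENSMUSG00000021699, no match at its only listed start). Of the other 4, Pde3b, Pde7a and Adcy6 were not matched, and the short form of Pde4b, before 1 of its 4 starts, lay in exon bases. A match describes these letters and is no measure of binding.
Prkar1a, chr11:109650699-109650920: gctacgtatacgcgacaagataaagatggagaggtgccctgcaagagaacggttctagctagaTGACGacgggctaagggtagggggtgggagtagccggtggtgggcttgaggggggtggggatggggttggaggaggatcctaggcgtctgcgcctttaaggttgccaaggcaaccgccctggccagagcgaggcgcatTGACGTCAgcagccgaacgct
Pde8a, chr7:81213015-81213264: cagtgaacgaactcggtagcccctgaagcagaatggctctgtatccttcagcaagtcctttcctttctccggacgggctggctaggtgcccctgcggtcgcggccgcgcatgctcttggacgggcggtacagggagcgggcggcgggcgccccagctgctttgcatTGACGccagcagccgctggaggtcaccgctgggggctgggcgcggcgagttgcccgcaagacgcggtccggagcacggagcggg
Adcy7, chr8:88282742-88282991: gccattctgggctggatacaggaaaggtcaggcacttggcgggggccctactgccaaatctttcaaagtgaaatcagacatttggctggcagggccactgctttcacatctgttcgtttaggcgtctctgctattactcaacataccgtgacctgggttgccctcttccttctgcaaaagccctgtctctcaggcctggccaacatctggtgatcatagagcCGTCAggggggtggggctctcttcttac
Pde4d, chr13:108653927-108654104: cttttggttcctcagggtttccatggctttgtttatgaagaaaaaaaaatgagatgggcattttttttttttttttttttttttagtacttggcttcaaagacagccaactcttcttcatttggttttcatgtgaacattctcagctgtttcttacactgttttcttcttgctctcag

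Before treatment the same 2 genes led the machinery in all 3 kinds of material. Levels are given as CPM per kilobase of exon, which allows only a rough comparison of genes. The length merged all annotated exons of a gene, 11186 bases for Gnas and 2488 for Prkaca. Genes with many alternative exons may therefore read low, here and in the sums by role. Gnai2, an inhibitory alpha subunit, was the highest of the 40 in whole lung at 169 ± 16.4, in the libraries labelled monocytes at 268 ± 7.14 and in CD4 T cells at 127 ± 4.03 (SD, n = 5, 4 and 4). Prkar1a, the type I alpha regulatory subunit of PKA, followed at 147 ± 12.5, 125 ± 2.48 and 82.7 ± 1.46, and in lung its range of 132 to 164 overlapped that of Gnai2, 152 to 196. The leading cyclase differed. Adcy7, a cyclase prominent in blood cells, led in lung at 22.7 ± 2.03 and in CD4 T cells at 73.4 ± 1.26 CPM per kilobase, whereas Adcy4, a cyclase stimulated by beta-gamma subunits, led in the libraries labelled monocytes at 50.5 ± 0.287. Adcy6, a cyclase inhibited by calcium, was second in CD4 T cells at 15.1 ± 0.632 CPM per kilobase.

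The leading phosphodiesterase also differed between materials. Pde8a, a cAMP-specific enzyme, was highest in lung at 13.2 ± 0.721 CPM per kilobase, and Pde4b, a cAMP-specific enzyme of leukocytes, in the libraries labelled monocytes at 25.2 ± 0.684. In CD4 T cells Pde7a at 12.3 ± 0.493 and Pde3b at 12.2 ± 0.786 CPM per kilobase were highest and did not differ beyond their spread. The catalytic subunits Prkaca and Prkacb were near level in CD4 T cells, at 23.9 ± 0.435 and 23.3 ± 0.929, while in lung Prkaca stood at 57.0 ± 2.35 and Prkacb at 16.4 ± 0.748 CPM per kilobase. Arrb2 exceeded Arrb1 in CD4 T cells, 52.6 ± 2.09 against 17.7 ± 0.347, and the order was the other way in lung, where Arrb1 was at 18.7 ± 2.81 and Arrb2 at 8.73 ± 0.619. Of the 40 genes, 29 had a mean of at least 1 CPM in untreated CD4 T cells, 39 in lung and 38 in the libraries labelled monocytes. Gnai1, Adcy2 and Adcy8 had at most 6 counts in any CD4 T cell library, so no change is given for them there.

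Tested between untreated groups with edgeR's quasi-likelihood test (adjusted p under 0.05), 20 genes were higher and 8 lower in the libraries labelled monocytes than in lung, where 31.9% of all genes tested were higher and 33.6% lower. Adcy4 was higher by 2.50 ± 0.11 on the log2 scale (SE, adjusted p = 1.91e-08), Pde4b by 1.89 ± 0.09 (adjusted p = 2.86e-08) and Arrb2 by 1.80 ± 0.07 (adjusted p = 1.36e-08). Endothelial markers summed to 8045 to 8552 CPM in these untreated libraries and to 1901 to 3304 in untreated lung. Monocyte markers summed to 4804 to 6131 and to 1973 to 3084. The part of either cell type in these levels was not tested. In CD4 T cells 11 of the 40 were higher and 24 lower than in lung, where 39.9% and 44.0% of all genes were. Of the 24, 6 passed the filter on low counts through lung alone (Gnai1, Adcy2, Adcy8, Pde3a, Prkar1b and Pkia), so their difference follows from the filter. Pde3b, an enzyme that cGMP inhibits, was higher by 3.21 ± 0.13 (adjusted p = 5.98e-10), Arrb2 by 2.77 ± 0.08 (adjusted p = 2.98e-11) and Adcy7 by 1.87 ± 0.08 (adjusted p = 4.99e-10). Rapgef3, which encodes EPAC1, was lower by a log2 change of -3.69 ± 0.12 (adjusted p = 7.44e-11), and Gnas, the stimulatory alpha subunit, of -1.46 ± 0.06 (adjusted p = 1.07e-09). The CD4 T cell libraries stood in a count table of their own, so the kind of material and the table cannot be told apart in these levels.

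Propranolol comparisons gave 39 of the 40 genes a call in at least 1 kind of material (97.5%, against 81.0% of all genes tested at least once), and Pkig, a PKA inhibitor, in none. Of the 34 tested in all 3, 6 were called in all 3 (17.6%, against 16.8% of all genes), and 1, Pde3b, was called in the same direction, higher (2.94%, against 3.14%). This holds for the usual scaling of lung. Under the resident cell scaling described below, Pde3b was at -0.24 in lung (adjusted p = 0.208), and with the melanocyte covariate at -0.01 (adjusted p = 0.974). In whole lung 20 of 40 genes were higher and 12 lower (background: 35.5% of 18639 genes higher and 35.3% lower, 70.8% in either direction). In the libraries labelled monocytes 5 of 40 were higher and 14 lower (background: 14.3% and 16.1% of 18236 genes, 30.5% in either direction). In the CD4 T cell libraries 13 of 34 genes tested were higher and 12 lower (background: 30.1% and 29.9% of 16550 genes, 60.0% in either direction). Calls over 2-fold counted 10 of 40 members in lung (25.0%, all genes 25.5%), 0 of 40 in the libraries labelled monocytes (all genes 2.43%) and 15 of 34 in CD4 T cells (44.1%, all genes 25.0%). The median log2 change of the members was 0.25 in lung, -0.08 in the libraries labelled monocytes and -0.14 in CD4 T cells, beside medians of 0.03, 0.02 and -0.04 over all genes tested. In lung and in the libraries labelled monocytes the share of members called over 2-fold was close to or under that of all genes.

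**Figure D1:**
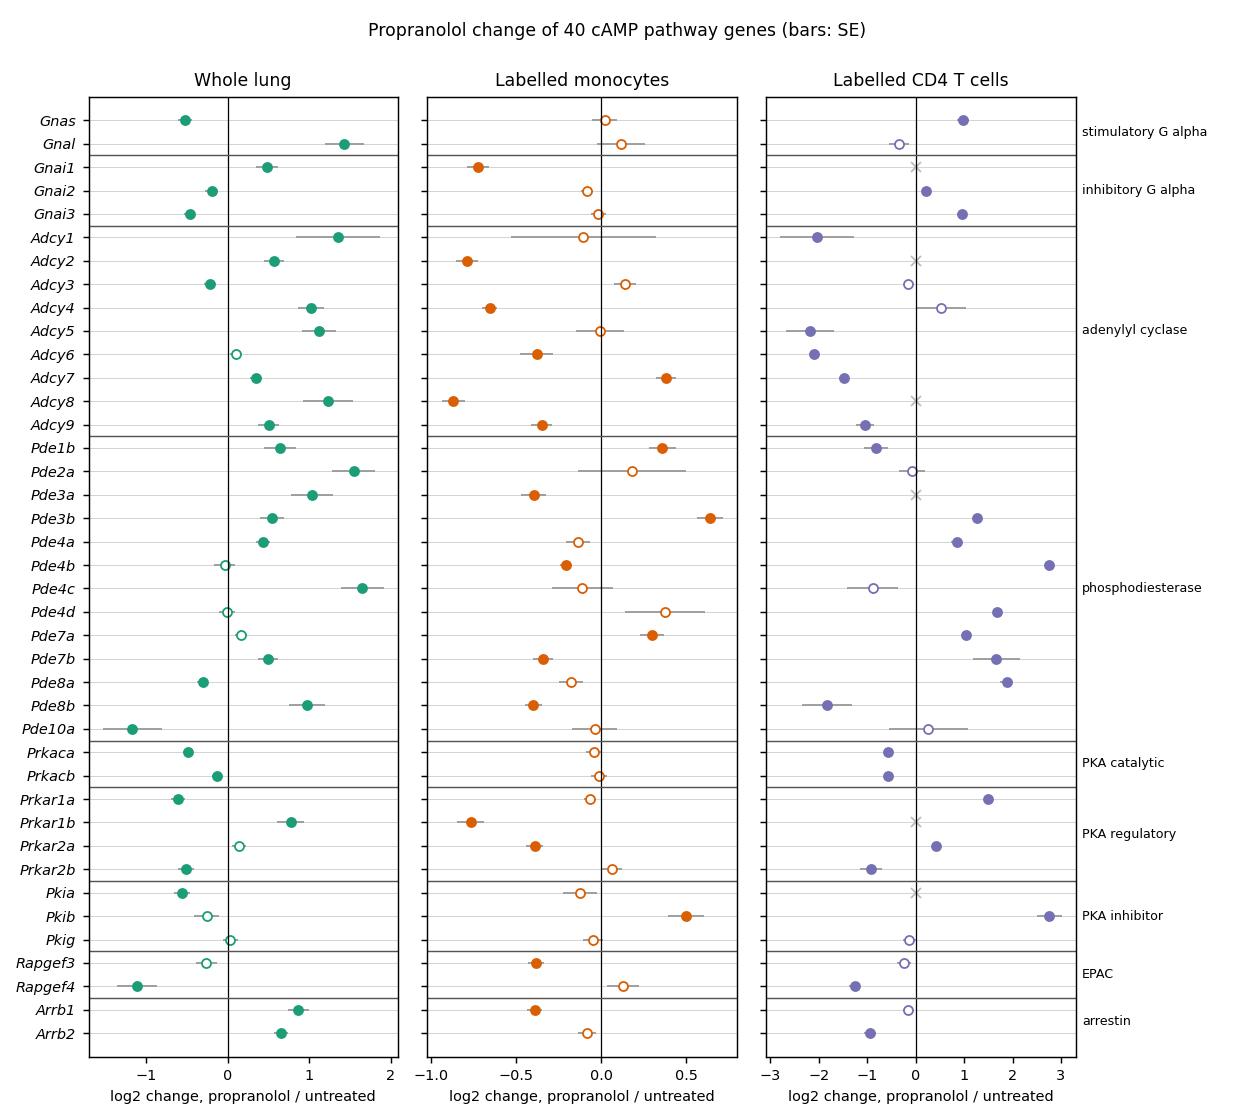
Log2 change with propranolol over untreated for the 40 genes, ordered by role, in whole lung, in libraries labelled monocytes and in libraries labelled CD4 T cells; points are the fitted changes, bars their SE, filled points passed an adjusted p of 0.05, open points did not, and crosses mark 6 genes not tested in CD4 T cells. The horizontal scales differ between panels: the monocyte panel spans changes under 1 in size, while Pde4b and Pkib lie beyond 2.5 in CD4 T cells.

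In CD4 T cells most tested cyclases were lower after propranolol and most tested phosphodiesterases higher, with Pde1b and Pde8b lower. Of 7 cyclases tested 5 were lower, 0 higher and 2 not called, with a median log2 change of -1.49. Of 12 phosphodiesterases tested 7 were higher, 2 lower and 3 not called, with a median of 0.94. The summed level of the 9 cyclases went from 94.0 ± 1.27 to 34.1 ± 4.52 CPM per kilobase (SD, n = 4 each), and that of the 13 phosphodiesterases from 48.7 ± 1.44 to 139 ± 7.71. Neither pair of ranges overlapped: cyclases lay between 92.3 and 95.3 untreated and between 27.7 and 38.2 treated, phosphodiesterases between 47.4 and 50.6 and between 128 and 147.

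Adcy6 stood at 108, 98.1, 100 and 102 CPM in untreated libraries 1 to 4 and at 23.9, 21.9, 24.8 and 24.0 CPM in the treated ones. Every treated library was lower than every untreated one, with a log2 change of -2.11 ± 0.07 (SE, adjusted p = 3.35e-10, edgeR). Adcy7, the most abundant cyclase of these libraries per kilobase, was at 493, 487, 506 and 491 CPM untreated and at 201, 138, 177 and 189 CPM treated. The groups were again apart, with a change of -1.49 ± 0.10 (adjusted p = 1.71e-07), and treated library 2 was the lowest. Adcy9, a cyclase insensitive to forskolin, was lower by -1.06 ± 0.18 (6.11 to 2.95 CPM, adjusted p = 0.000433). Adcy5 and Adcy1 were also called lower but had means under 1 CPM in both groups, and the call of Adcy1 was lost in 6 of 8 fits that left out 1 library (without untreated 1, 2 or 4 or treated 1, 2 or 3), with adjusted p between 0.0589 and 0.105. Adcy3 at 25.1 and 22.5 CPM, untreated and treated, and Adcy4 at 0.598 and 0.843 CPM were not called.

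Among the phosphodiesterases, Pde4b showed the largest change: 64.9, 73.8, 78.2 and 68.9 CPM untreated and 506, 442, 490 and 489 CPM treated. Every treated library was above every untreated one, with a log2 change of 2.75 ± 0.08 (adjusted p = 8.55e-11). Pde4d, another cAMP-specific PDE4 enzyme, was at 76.1, 71.4, 72.4 and 68.2 CPM untreated and at 237, 221, 234 and 232 CPM treated. Its groups were apart and its change was 1.68 ± 0.06 (adjusted p = 5.15e-10). Pde8a, whose promoter is shown above, was at 18.4, 12.7, 14.7 and 12.8 CPM untreated and at 62.9, 45.4, 53.7 and 52.7 CPM treated, a change of 1.88 ± 0.14 (adjusted p = 3.36e-07). Library 1 was the highest of each group, and the groups did not overlap.

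Pde3b was at 103, 110, 121 and 111 CPM untreated and at 253, 275, 282 and 260 CPM treated, again without overlap (1.26 ± 0.07, adjusted p = 1.61e-08). Pde7a, a cAMP-specific enzyme known from T cells, was at 90.7, 96.6, 99.8 and 94.9 CPM untreated and at 210, 173, 196 and 200 CPM treated. The lowest treated library was above the highest untreated one (1.03 ± 0.07, adjusted p = 1.64e-07). Pde4a was higher by 0.84 ± 0.12 (12.2 to 21.9 CPM), and Pde7b by 1.67 ± 0.49 at 0.469 to 1.55 CPM. The exceptions were Pde1b, a calmodulin-dependent enzyme, which was lower by -0.82 ± 0.25 (28.4 to 16.0 CPM), and Pde8b, lower by -1.83 ± 0.52 at 1.26 to 0.348 CPM. Pde2a, Pde4c and Pde10a, all under 2 CPM, were not called.

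**Figure D2:**
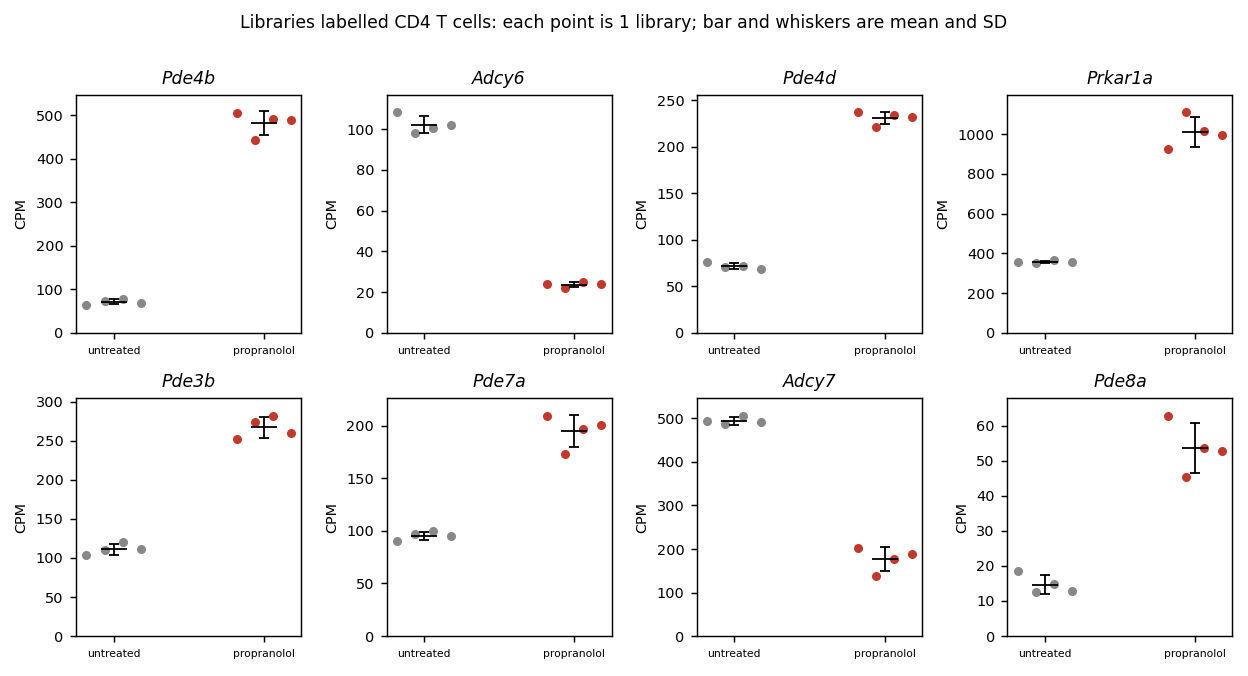
CPM in each library labelled CD4 T cells, untreated and propranolol, for the 8 members with the smallest p; points are libraries, horizontal lines and whiskers mean and SD (n = 4 each), and each vertical axis starts at 0. In none of the 8 genes did a treated library fall within the range of the untreated ones. Adcy6 and Adcy7 lay below it and the other 6 above it. The genes were chosen for small p in these same libraries, so this separation follows in part from the choice. The share of separated groups over all genes was not counted.

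In CD4 T cells the PKA catalytic subunits were lower and the main regulatory subunit, Prkar1a, higher, while the regulatory subunits did not all move the same way. Prkar1a was at 354, 351, 366 and 359 CPM untreated and at 927, 1109, 1016 and 994 CPM treated. Its groups were far apart (1.5 ± 0.06, adjusted p = 2.65e-09), and treated library 1 was the lowest of its group. Prkaca was lower by -0.58 ± 0.09 (59.5 to 40 CPM, adjusted p = 0.000159) and Prkacb by -0.57 ± 0.05 (204 to 137 CPM, adjusted p = 3.22e-06). Summed per kilobase, the 4 regulatory subunits went from 106 ± 2.48 to 251 ± 21.7 CPM and the 2 catalytic subunits from 47.2 ± 0.919 to 31.7 ± 2.33. Prkar1a made up most of the regulatory sum in both groups and carried its rise, so this sum does not describe the class. Prkar2a, a type II subunit, was higher by 0.42 ± 0.09, whereas Prkar2b, the other type II subunit, was lower by -0.92 ± 0.23, from 65.3 ± 5.67 to 34.6 ± 14 CPM. Pkib, a peptide inhibitor of the catalytic subunits, was higher by 2.76 ± 0.26 at low level, 1.17 ± 0.400 to 8.15 ± 1.55 CPM (adjusted p = 2.69e-06).

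Upstream of the cyclases, Gnas was higher in treated CD4 T cells by 0.97 ± 0.12 (28.0 to 54.8 CPM, adjusted p = 4.03e-05). The inhibitory subunits were higher too, Gnai3 by 0.96 ± 0.09 (164 to 318 CPM, adjusted p = 4.48e-06) and Gnai2 by 0.22 ± 0.06 (481 to 559 CPM, adjusted p = 0.00872). Counting may or may not have used strand, so reads of Gnas and of its antisense partners Nespas and Gm20721 cannot be told apart. The same holds for 9 other members whose exons overlap a gene on the other strand: Gnal (Mppe1), Adcy2 (Gm35161), Adcy3 (Cenpo), Adcy6 (Gm29331), Pde3a (Gm28523), Pde7a (Gm16093), Pde8b (Gm48420), Rapgef4 (Rapgef4os2) and Rapgef3 (Rapgef3os1 and Rapgef3os2). Rapgef4, which encodes EPAC2, was lower by -1.26 ± 0.11 (24.8 to 10.3 CPM, adjusted p = 2.23e-06), and Rapgef3 was at 7.87 and 6.66 CPM, not called. Of the arrestins, Arrb2 was lower by -0.95 ± 0.13 (150 to 77.6 CPM, adjusted p = 5.34e-05), and Arrb1 was at 198 and 177 CPM without a call. Summed arrestin level went from 70.4 ± 1.95 to 43.1 ± 3.17 CPM per kilobase.

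Markers of other cells and states moved with these changes in the CD4 T cell libraries. All 10 B cell markers rose (185 to 231 CPM summed untreated, 591 to 768 treated), as did all 10 neutrophil markers (222 to 309, then 1210 to 1776). Of the 10 CD4 T cell markers 7 rose (2512 to 2578, then 4894 to 5630), led by the activation genes Icos, at 94.3 then 780 CPM, and Ctla4, at 85.7 then 517, while Cd4 itself was at 564 and 524 CPM without a call. The monocyte list rose in 9 of 10 genes (421 to 525, then 4420 to 5041), of which Nr4a1, an early response gene that T cells also express, made up 82.7 and then 3504 CPM, and Cd14 went from 1.21 to 76.5 CPM. Of the 8 plasma cell markers, whose sums are given above, Ighm and Xbp1 rose (adjusted p = 0.00439 and 2.6e-06), Derl3 and Tnfrsf17 fell, and Igha was not called. No gene of the B cell, neutrophil, monocyte and plasma cell lists was at 0 in these libraries. Their part in the cAMP results was not tested.

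In whole lung most cyclases and phosphodiesterases were higher after propranolol under the usual scaling, and the leading G protein and PKA subunits lower. Cyclases counted 7 higher, 1 lower and 1 not called (median 0.57), and phosphodiesterases 8 higher, 2 lower and 3 not called (median 0.49). Both PKA catalytic subunits and 2 of the 4 regulatory ones were lower, and both arrestins higher. Under the resident cell scaling described below the cyclases counted 1 higher and 2 lower (median -0.18), the phosphodiesterases 2 and 5 (median -0.28) and the arrestins 0 and 0, while both catalytic subunits stayed lower. Summed cyclase level went from 67.1 ± 3.39 to 95.4 ± 10.6 CPM per kilobase, PKA catalytic subunits from 73.4 ± 2.88 to 55.5 ± 1.31 and arrestins from 27.4 ± 3.35 to 47.7 ± 6.47 (SD, n = 5 each).

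The makeup of the lung libraries differed between the groups at the same time. All 12 melanocyte markers fell, from 18181 to 29412 CPM summed in untreated lung to between 1159 and 10818 in treated lung, while 11 of 12 endothelial markers rose (1901 to 3304, then 3334 to 5363), and all 10 B cell markers (50.8 to 80.8, then 184 to 271). When libraries were scaled on 42 markers of resident lung cells instead, the median change over all genes moved from 0.03 to -0.72, and the members split as 4 higher and 20 lower instead of 20 and 12 (all genes 9.76% higher and 58.3% lower). With the level of the 12 melanocyte markers as a covariate, 0 members were higher and 2 lower (all genes 3.59% and 2.73%), Prkaca by -0.42 (adjusted p = 0.0275) and Pde4b by -0.62 (adjusted p = 0.0168). The ranges of the melanocyte level did not overlap between the groups, so tumour share and treatment cannot be told apart in these changes.

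The 8 lung members with the smallest p covered most roles. Prkaca was at 147, 138, 133, 145 and 146 CPM untreated and at 106, 97.8, 99.5, 99.6 and 102 CPM treated. Its groups did not overlap (-0.49 ± 0.05, adjusted p = 8.18e-05), and it was lower under both alternatives, with -1.23 under resident scaling (adjusted p = 0.00063). Prkar1a was at 709, 667, 569, 618 and 611 CPM untreated and at 440, 399, 404, 381 and 459 CPM treated, also apart (-0.61 ± 0.09, adjusted p = 0.000194), the opposite direction to CD4 T cells. Under resident scaling it was at -1.35 (adjusted p = 0.00063) and with the melanocyte covariate at -0.39 (adjusted p = 0.0727).

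Gnas, at 95.9, 81.3, 82.6, 85.3 and 92.3 CPM untreated, was at 72.6, 56.0, 54.1, 60.3 and 61.0 CPM treated. Each treated library was lower than each untreated one (-0.53 ± 0.09, adjusted p = 0.000411). Gnai3 was at 186, 198, 166, 169 and 169 CPM untreated and at 128, 129, 128, 124 and 133 CPM treated. These groups were also apart (-0.47 ± 0.06, adjusted p = 0.00018), and both genes were lower under resident scaling (-1.26 and -1.22, adjusted p = 0.00063 each).

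Adcy4 was at 40.7, 45.7, 59.1, 47.7 and 53.8 CPM untreated and at 80.1, 91.7, 119, 133 and 79.1 CPM treated. The groups did not overlap (1.03 ± 0.16, adjusted p = 0.000302), but under resident scaling the change was 0.26 (adjusted p = 0.0867). Pde4c, a PDE4 enzyme of low level, was at 1.09, 0.587, 1.49, 1.24 and 1.25 CPM untreated and at 3.39, 4.72, 2.83, 4.46 and 2.57 CPM treated. It was higher under both scalings (1.65 ± 0.26, adjusted p = 0.000334, and 0.93, adjusted p = 0.00246).

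Arrb1 was at 172, 203, 259, 198 and 211 CPM untreated and at 352, 423, 403, 431 and 290 CPM treated. Arrb2 was at 22.0, 24.8, 26.4, 24.8 and 26.2 CPM untreated and at 38.6, 42.7, 38.5, 41.9 and 33.7 CPM treated. Neither gene's groups overlapped (0.87 ± 0.13, adjusted p = 0.000269, and 0.65 ± 0.08, adjusted p = 0.000131), but under resident scaling Arrb1 was at 0.11 (adjusted p = 0.479) and Arrb2 turned to -0.10 (adjusted p = 0.571).

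Among the other lung members, the largest increases under the usual scaling were those of Pde2a (1.55 ± 0.27), Gnal, the olfactory-type stimulatory subunit (1.43 ± 0.24), Adcy1, a calmodulin-stimulated cyclase (1.36 ± 0.51, adjusted p = 0.0338, 1.26 to 3.25 CPM), Adcy8, another of that kind (1.23 ± 0.31, 25.3 to 59.4 CPM), and Adcy5 (1.12 ± 0.21, 17.0 to 37.0 CPM). Pde2a rested on 5 to 8 counts per untreated and 16 to 28 per treated library and shares exon bases with Gm45837. The cardiac and smooth muscle type enzyme Pde3a was higher by 1.04 ± 0.26 (72.8 to 150 CPM) and Pde8b by 0.97 ± 0.22 (26.8 to 52.7 CPM). Of these, Gnal, Adcy5 and Pde2a, with Pde4c, made up the 4 genes higher under resident scaling. Rapgef4 was lower by -1.11 ± 0.24 (95.8 to 44.3 CPM) and Pde10a by -1.17 ± 0.36 (14.6 to 6.48 CPM), and both were lower under resident scaling (-1.78 and -1.83). Pde4b, at 84.6 and 82.4 CPM, and Pde4d, at 27.2 and 27.0 CPM, were not called under the usual scaling and were lower under resident scaling (-0.81 and -0.76). Of the 32 called genes 7 had groups that overlapped, namely Gnai1, Gnai2, Adcy1, Pde1b, Pde3b, Pde10a and Prkacb. The share of overlap among all genes called in lung was not counted. The calls of Gnai2, Adcy1, Adcy3 and Prkacb were lost in 9, 5, 2 and 7 of the 10 fits that left out 1 lung library. Adcy3 lost its call without treated library 2 or 3 (adjusted p = 0.0563 and 0.0606), and Gnai2 kept it only without untreated library 4. Adcy1 lost it without untreated 1 or 5 or treated 2, 3 or 4 (adjusted p up to 0.0713), and Prkacb kept it only without untreated 2 or 3 or treated 3.

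**Figure D3:**
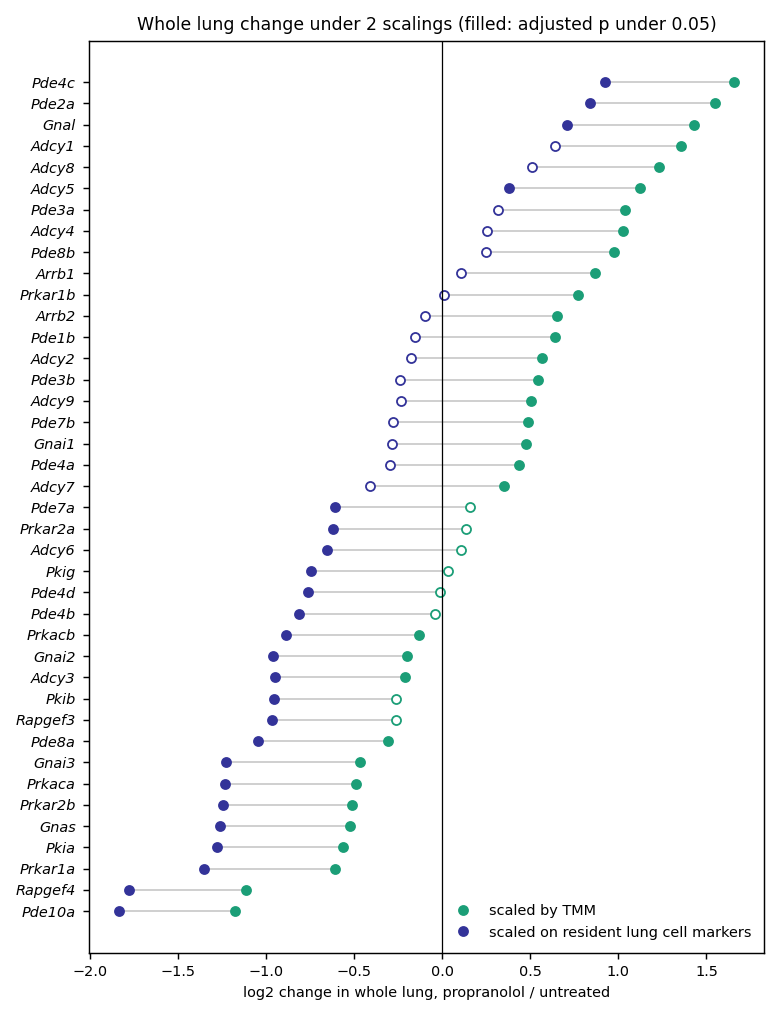
Log2 change of each of the 40 genes in whole lung, propranolol over untreated, under trimmed-mean (TMM) scaling and under scaling on resident lung cell markers; filled points passed an adjusted p of 0.05, and lines join the values of a gene. Every gene lay lower under resident scaling, where 4 genes were higher and 20 lower, against 20 and 12 under TMM.

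In the libraries labelled monocytes most of the called cyclases were lower after propranolol, and no member changed over 2-fold with a call. Of the 9 cyclases 5 were lower, 1 higher and 3 not called (median -0.35), and their summed level went from 108 ± 0.716 to 87.2 ± 2.94 CPM per kilobase (SD, n = 4 each). Phosphodiesterases were mixed, with 3 higher, 4 lower and 6 not called, and the stimulatory subunits and the PKA catalytic subunits had no call. No called member had groups that overlapped, but the share over all called genes was not counted, so this does not set the members apart. Cells of other types moved with these changes: all 12 endothelial markers fell (8045 to 8552 CPM summed untreated, 5754 to 5892 treated), as did 8 of 10 alveolar type 1 markers (1818 to 1834, then 1368 to 1395), 7 of 10 fibroblast markers (2847 to 3289, then 1779 to 1854) and 9 of 10 airway markers (4816 to 6369, then 4164 to 4769), while all 10 B cell markers rose (185 to 285, then 458 to 494). Of 12 melanocyte markers 10 rose (4693 to 5913, then 5838 to 8678), with Dct at 1133 to 1423 and then 1431 to 2140 CPM. Smooth muscle and pericyte markers fell in 5 of 10 genes (597 to 629, then 403 to 431), and plasma cell markers rose in 4 of 8 and fell in 1 (606 to 770, then 867 to 1075). T cell markers summed to between 170 and 833 CPM untreated and between 320 and 1412 treated, with overlap. Cytotoxic lymphocyte markers summed to between 44.0 and 144, then between 119 and 309, also with overlap. No gene of these lists was at 0, and their part in the cAMP results was not tested.

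Adcy4 was at 235, 235, 236 and 238 CPM in untreated libraries 1 to 4 and at 146, 139, 158 and 156 CPM in treated ones. The groups were apart (-0.66 ± 0.04, adjusted p = 2.17e-06). Adcy8 was at 47.7, 52.7, 58.6 and 59.4 CPM untreated and at 29.6, 29.5, 30.1 and 30.2 CPM treated. Adcy2 was at 18.7, 18.1, 18.9 and 19.5 CPM untreated and at 10, 11.1, 11.3 and 10.9 CPM treated. Both were lower in every treated library (-0.87 ± 0.07, adjusted p = 5.61e-06, and -0.79 ± 0.06, adjusted p = 6.64e-06). Adcy6 was lower by -0.38 ± 0.10 and Adcy9 by -0.35 ± 0.06, and Adcy7 was the exception, higher by 0.38 ± 0.06 (145 to 189 CPM, adjusted p = 0.000684).

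Gnai1, an inhibitory subunit, was at 26.4, 30.1, 29.5 and 29.0 CPM untreated and at 18.6, 17.0, 17.2 and 16.8 CPM treated. Prkar1b, the type I beta regulatory subunit, was at 15.0, 14.8, 15.3 and 15.1 CPM untreated and at 8.03, 8.91, 8.40 and 10 CPM treated. Both sets of groups were apart (-0.73 ± 0.06, adjusted p = 1.06e-05, and -0.77 ± 0.08, adjusted p = 3.89e-05). Prkar1b shares exon bases with Gm15672, so part of its reads is uncertain. Rapgef3 was at 106, 106, 107 and 106 CPM untreated and at 82.0, 73.6, 84.6 and 85.2 CPM treated, lower in every treated library (-0.38 ± 0.05, adjusted p = 0.000164). Arrb1 was at 407, 398, 370 and 361 CPM untreated and at 286, 291, 297 and 298 CPM treated. It was lower in all treated libraries (-0.39 ± 0.04, adjusted p = 7.82e-05), although not called when lung and monocyte libraries shared 1 fit (adjusted p = 0.0559).

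Pde3b ran against the trend, at 42.1, 40.9, 37.0 and 38.4 CPM untreated and at 68.9, 65.6, 57.9 and 54.4 CPM treated. Every treated library was higher (0.64 ± 0.08, adjusted p = 0.00012), and within each treatment libraries 1 and 2 lay above libraries 3 and 4. Pde1b, Pde7a and Pkib were also higher (0.36, 0.30 and 0.50), and Pde4b, the leading phosphodiesterase of these libraries, was lower by -0.21 ± 0.03 (266 to 230 CPM). Pde3a, Pde7b, Pde8b and Prkar2a were lower by -0.40, -0.34, -0.40 and -0.39. Pde4d was at 23.1, 27.0, 33.0 and 35.3 CPM untreated and 50.2, 51.4, 26.8 and 25.4 CPM treated, and was not called (adjusted p = 0.259). Libraries 1 and 2 were the lower pair when untreated and the higher pair when treated. When each close pair was summed to 1 library, a choice made after the pairs had been seen, 1 member was higher, Pde3b (0.63, adjusted p = 0.0258), and 9 were lower, against 5 and 14 (all genes 1.98% and 4.69%). The 8 members given library by library were all among those 10, with adjusted p between 0.012 and 0.0435.

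**Figure D4:**
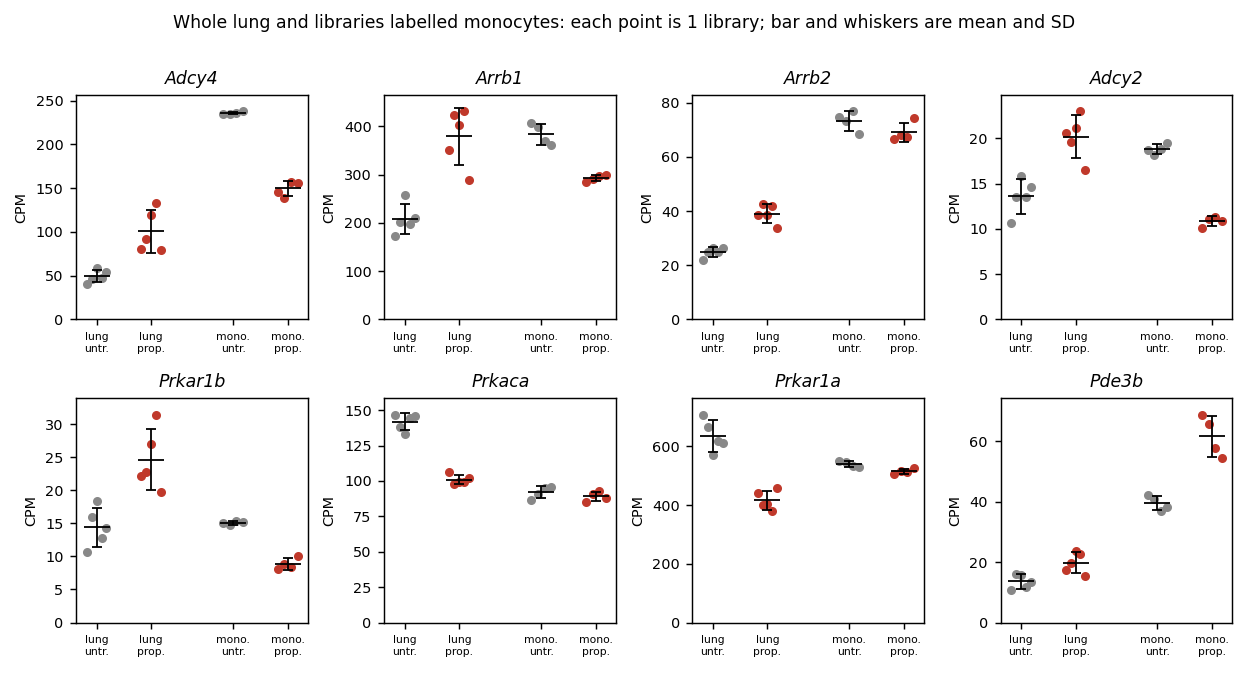
CPM per library of 8 members in whole lung (n = 5 each) and in libraries labelled monocytes (n = 4 each), untreated (untr.) and propranolol (prop.); lines and whiskers are mean and SD, axes start at 0, and CPM were scaled within each kind of material. Adcy4, Arrb1, Adcy2 and Prkar1b were higher in treated lung under this scaling and lower in treated libraries labelled monocytes. Pde3b was higher in both under this scaling, but not called in lung under resident scaling (-0.24, adjusted p = 0.208).

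The change itself was compared between kinds of material by the interaction term of a joint edgeR fit. A difference was called for 27 of 40 members between the libraries labelled monocytes and lung (all genes 57.4%), for 24 between CD4 T cells and lung (all genes 56.2%) and for 26 between CD4 T cells and the libraries labelled monocytes (all genes 47.7%). Between the libraries labelled monocytes and lung, the change of 9 members was more upward and that of 18 more downward in the former (background 25.2% and 32.3% of 20328 genes), with a median difference of -0.34 beside -0.17 over all genes. The clearest were Adcy2 at -1.48 ± 0.16 (adjusted p = 5.08e-06), Adcy4 at -1.81 ± 0.21 (7.66e-06), Arrb1 at -1.38 ± 0.17 (1.33e-05), Arrb2 at -0.86 ± 0.11 (1.84e-05) and Prkar1b at -1.66 ± 0.22 (1.86e-05). With lung scaled on resident cell markers the split was 19 and 9 (all genes 49.1% and 9.55%), all genes had a median of 0.69, and Arrb2 was at 0.01 (adjusted p = 0.972). Counted by calls, 10 of 40 members were higher in lung and lower in the libraries labelled monocytes (25.0%, against 9.24% of the 17471 genes tested in both), and 0 the reverse (all genes 7.44%). Under resident scaling of lung these counts were 0 and 2 (all genes 1.66% and 9.87%). Under the usual scaling 3 members, Pde3b, Adcy7 and Pde1b, moved the same way in both (7.50%, all genes 7.94%). In lung under resident scaling these 3 turned to -0.24, -0.41 and -0.15, without a call (adjusted p = 0.208, 0.0775 and 0.621).

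Between CD4 T cells and lung, 10 members changed more upward and 14 more downward in CD4 T cells (background 24.0% and 32.2% of 20832 genes). Prkar1a led at 1.93 ± 0.09 (adjusted p = 6.08e-12), followed by Adcy6 at -2.39 ± 0.12 (1.75e-11), Adcy7 at -2.01 ± 0.14 (1e-09), Pde4b at 2.61 ± 0.19 (2.69e-09) and Pde8a at 2.02 ± 0.15 (3.34e-09). With lung scaled on resident cell markers, a setting added after the data had been seen, the split was 15 and 9 (all genes 40.3% and 14.5%). Between CD4 T cells and the libraries labelled monocytes, 15 were more upward and 11 more downward (background 23.8% and 24.0% of 20023 genes), and the same 5 genes led: Pde4b at 2.97 ± 0.09 (adjusted p = 3.16e-14), Prkar1a at 1.58 ± 0.07 (2.17e-12), Adcy7 at -1.85 ± 0.13 (1.98e-09), Adcy6 at -1.71 ± 0.13 (3.04e-09) and Pde8a at 2.08 ± 0.16 (4.48e-09). The 6 members not tested within CD4 T cells entered these fits through the other libraries. Of them 0 were called against lung and 1, Prkar1b, against the libraries labelled monocytes (1.92, adjusted p = 0.0344). It rested on 2 to 5 counts per untreated and 0 to 16 per treated CD4 T cell library, and its call was lost with close monocyte libraries summed (1.95, adjusted p = 0.121). These 3 comparisons share libraries and are not independent of each other.

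**Figure D5:**
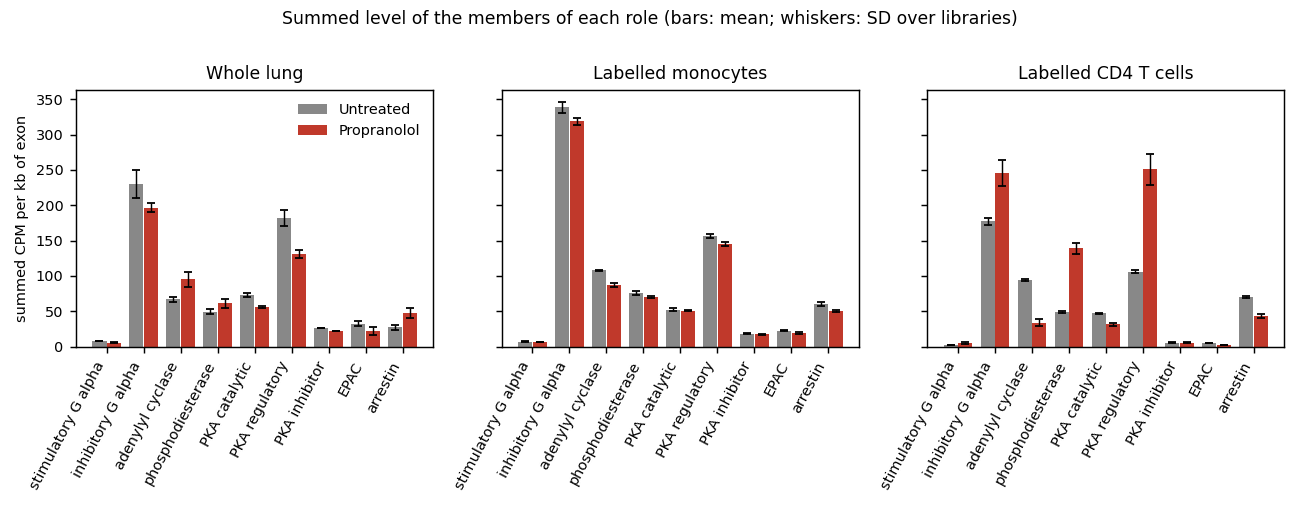
Summed level of the members of each role in CPM per kilobase of exon, untreated and propranolol, in whole lung (n = 5 each), libraries labelled monocytes and libraries labelled CD4 T cells (n = 4 each); bars are means, whiskers SD over libraries. In CD4 T cells the phosphodiesterase and PKA regulatory sums were higher and the cyclase sum lower with propranolol, while in lung the PKA regulatory sum was lower. The rise of the PKA regulatory sum in CD4 T cells was that of Prkar1a, and Prkar2b was lower there.

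The wider pathway was described with 5 further gene lists. Their counts stand beside these shares of all genes tested, higher and lower: 30.1% and 29.9% in CD4 T cells, 35.5% and 35.3% in lung. In lung under resident scaling the shares were 9.76% and 58.3%, and in the libraries labelled monocytes 14.3% and 16.1%. The lists are short, and none was tested as a set against these shares. In CD4 T cells 7 of 14 tested receptors coupled to the stimulatory G protein were higher and 4 lower. Adora2a, the adenosine receptor of T cells, was higher by 2.59 ± 0.07 (39.4 to 236 CPM, adjusted p = 6.22e-11) and Ptger4, a prostaglandin E receptor, by 1.25 ± 0.08 (58.3 to 138 CPM), while Vipr1, a receptor for vasoactive intestinal peptide, was lower by -1.91 ± 0.08 (101 to 26.9 CPM). A-kinase anchors, which tether PKA, counted 4 higher and 6 lower of 16, with Ezr higher by 1.40 ± 0.05 and Akap1 lower by -1.88 ± 0.14. Receptor kinases counted 1 higher (Grk5, 0.71) and 3 lower of 5, including Grk2 (-0.36) and Grk6 (-0.37). Other phosphodiesterases counted 0 higher and 3 lower of 5, among them Pde11a (-1.28) and Pde6d (-1.16). Other effectors and transporters counted 6 higher and 3 lower of 10, with Prkx, a kinase related to PKA, higher by 1.64 ± 0.07 (57.4 to 179 CPM).

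In whole lung 14 of 21 tested receptors of this kind were higher and 3 lower under the usual scaling (median 0.92), among them Ptger2 (1.04), Gpr65 (1.03) and Hrh2 (1.33), all under 10 CPM, whereas under resident scaling 4 were higher and 4 lower (median 0.18) and of these 3 only Hrh2 was called (0.62). All 5 receptor kinases were higher under the usual scaling, Grk3 by 1.28 ± 0.20 (41.5 to 101 CPM), but 1 was higher, Grk3 (0.55), and 3 lower under resident scaling. Anchors counted 8 higher and 5 lower of 18, with Akap13 higher by 0.86 and Gskip lower by -0.50, other phosphodiesterases 2 and 3 of 8, and other effectors 4 and 4 of 15, where Rapgef2 was lower by -1.07 ± 0.20 (369 to 176 CPM). Under resident scaling these splits were 1 and 11, 1 and 5, and 0 and 10, with Akap13 at 0.12 (adjusted p = 0.417). The receptor gene Calcrl and the anchor gene Akap5 are among the resident markers. In the libraries labelled monocytes 5 receptors were higher and 5 lower of 19. Adrb1, a beta-adrenoceptor, was lower by -0.87 ± 0.04 (71.8 to 39.2 CPM, adjusted p = 4.84e-07), as was Calcrl, a receptor gene that is itself an endothelial marker (-0.68 ± 0.04). Receptor kinases counted 3 higher and 1 lower of 5, with Grk6 at 0.39 and Grk5 at -0.32, and anchors 2 and 2 of 17, with Cbfa2t3 at -0.52. Other phosphodiesterases counted 1 and 2 of 6, with Pde5a at -0.78, and other effectors 3 and 1 of 14, with Rapgef6 at 0.36.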

How the data were processed

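Polyadenylated RNA was sequenced on a NovaSeq instrument from NEBNext libraries, per the labels' protocols. Raw gene counts were deposited by the authors as 2 separate tables, for the lung and monocyte libraries and for the CD4 T cell libraries. Per the submitters' processing notes the tools were STAR 2.7.9, featureCounts and Subread 2.0.3 on GRCm39. Strand use during counting was not given in these sources. No annotation of that build was used, so gene positions are not given. Symbols (94.0% of 55416 genes), exon lengths and overlaps came from GENCODE M21, and promoters from RefSeq, both on GRCm38.

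Each comparison was fitted on the libraries of its 2 groups (4 for differences of changes) with filterByExpr (minimum count 10), TMM scaling, edgeR 4.0.16 (quasi-likelihood F test, R 4.3.3) and Benjamini-Hochberg adjustment over all genes tested, at a threshold of 0.05. CPM were TMM-scaled within a comparison. CPM per kilobase are divided by the merged length of all annotated exons of a gene. Changes are log2 of propranolol over untreated ± SE. Depth ran from 17625672 counts in the shallowest library to 48306925 in the deepest. The members, gene lists and tests were chosen with earlier results of these data known. Named library by library are the 8 called members with the smallest p and a mean of at least 1 CPM per comparison, the 5 with the smallest p per difference of changes, and up to 3 called genes per further list. Alternatives were the size factors and test of DESeq2 1.42.0, limma-voom (limma 3.58.1) with quality weights, no filter, a mean of at least 5 CPM, each library left out, the replicate number as a block, lung and monocyte libraries in 1 fit, a melanocyte covariate and scaling on resident cell markers in lung. Summing close monocyte libraries, and resident scaling in the CD4 T cell and lung fit, were added after the data had been seen. The code was checked on simulated counts with the same fixed spread for all genes, few changed genes and no shift in makeup. Such counts are simpler than these data, so the check does not vouch for the calls. No 2 libraries of a group agreed within the noise of independent counts, the lowest chi-square per degree of freedom being 3.52. The excess of even low counts given below was not allowed for. These values cannot tell whether any libraries are technical repeats.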

Additional observations from a re-analysis of the deposited data

Results flagged for a closer look

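In 4 of 211 groups of a member with a mean of at least 1 CPM, 1 library lay far from the others of its group; chance alone gives about 1 group in 20. Pde4d was at 21.8 CPM in untreated lung library 2 and at 27.9 to 29.1 in the others. Pde10a was at 4.35 CPM in treated monocyte library 1 and at 5.69 to 5.90 in the others, and Prkar2b at 41.3 CPM in treated monocyte library 3 and at 37.2 to 37.6 in the others. Arrb2 was at 159 CPM in untreated CD4 T cell library 2 and at 146 to 147 in the others.

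The difference of the log2 changes between kinds of material was tested for all members, and the 5 with the smallest p per pair are listed. For the libraries labelled monocytes minus lung they were Adcy2 at -1.48, Adcy4 at -1.81, Arrb1 at -1.38, Arrb2 at -0.86 and Prkar1b at -1.66. For CD4 T cells minus lung they were Prkar1a at 1.93, Adcy6 at -2.39, Adcy7 at -2.01, Pde4b at 2.61 and Pde8a at 2.02. For CD4 T cells minus the libraries labelled monocytes they were Pde4b at 2.97, Prkar1a at 1.58, Adcy7 at -1.85, Adcy6 at -1.71 and Pde8a at 2.08. The adjusted p of all 15 lay at or under 1.86e-05.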

How the results depend on the processing

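Of 723 values of named members under alternatives, 711 kept direction and call, 10 kept direction without the call and 2 reversed. These members were chosen for small p in the same libraries, and many alternatives left out only 1 library. The agreement follows in part from that choice. Of the named lung members only Prkaca kept its call with the melanocyte covariate. Adcy4, Arrb1 and Arrb2 lost their lung calls under resident scaling. In lung, the melanocyte covariate left 0 members higher and 2 lower, and resident cell scaling 4 higher and 20 lower, with Arrb2 reversed at -0.10 (adjusted p = 0.571); the cause was not tested. Lung and monocyte libraries in 1 fit left 4 higher and 8 lower members in the libraries labelled monocytes, beside 819 and 1250 of all 20328 genes. The separate fit had called 2614 genes higher and 2939 lower of 18236, so calls fell over all genes. Close libraries summed, with fewer samples, left 1 higher and 9 lower members. With lung scaled on resident markers, the difference between monocytes and lung split as 19 upward and 9 downward, with Arrb2 reversed at 0.0083, and 9 members were downward in CD4 T cells against lung. Leaving out each library in turn gave 19 to 21 members higher and 9 to 12 lower in lung, 5 and 14 to 15 in the libraries labelled monocytes, and 13 and 11 to 12 in CD4 T cells. For the differences of changes it gave 7 to 10 upward and 18 to 21 downward (monocytes against lung), 9 to 11 and 14 to 17 (CD4 T cells against lung) and 14 to 16 and 11 to 12 (CD4 T cells against monocytes), and for untreated levels 18 to 22 higher and 8 lower (monocytes) and 11 to 13 and 23 to 25 (CD4 T cells). Replicate numbers did not pair the samples throughout. Departures from the group mean were correlated between the untreated and the treated library of the same number. The correlation was -0.11 to 0.59 in lung, -0.56 to -0.33 in the libraries labelled monocytes and -0.05 to 0.05 in CD4 T cells. Lung numbers 1 and 3 stood highest, at 0.53 and 0.59. For CD4 T cell numbers 2 and 3 the library of the same number was the best match, at 0.04 and 0.05. With the replicate block the members split as 20 and 11 in lung, 5 and 13 in the libraries labelled monocytes and 13 and 12 in CD4 T cells. The test of DESeq2 gave 21 and 12, 5 and 14, and 13 and 12. Members under 1 CPM in CD4 T cells rest on few counts, and no alternative separates tumour share from treatment in lung.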

Other observations

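Among genes with 1 to 20 counts, the share of even counts was 57.6% to 62.7% over the lung and monocyte libraries and 69.6% to 76.9% over the CD4 T cell libraries; the cause was not tested.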
